A study of Marchantia polymorpha with 6 samples.

Results

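Some protein-coding gene models of the liverwort Marchantia polymorpha are made mostly of sequence that the same genome's element annotation lists as repeats. They are the 620 of 18288 coding genes in which elements covered at least 50% of the exonic bp, 3.39% of the coding genes. Exons were joined over the transcripts of a gene, and overlapping elements were merged before bases were counted. The series held 6 RNA-seq libraries made from poly(A) RNA of 14-day thalli (the plant's flat haploid body). Tak-1, a male line used as wild type, gave 3 of them and the mutant Mpmet-3 the other 3. Its mutated gene is MpMET, the counterpart of the enzyme that maintains CG methylation. The deposited files used here are the gene and the element annotation of Tak-1 (assembly MpTak1 v5.1 revision 2) and hold no value of a library, so expression in either genotype was not analysed here and the depth is unknown. Tissue markers could not be checked for the same reason. Every result below describes 1 annotated genome, and chromosomes are the units of the tests.

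LTR retrotransposons move through an RNA copy and carry an internal part, which codes for the proteins of copying and insertion, between a pair of long terminal repeats. DNA transposons move as DNA and are bounded by inverted repeats between which their transposase, or captured host sequence, can lie. Repeat annotation finds elements by such terminal structures or by grouping sequences that recur in a genome, and a group with no recognised features is left in an unknown class. Plants silence elements with DNA methylation. The bases of a gene model made of such sequence are listed in both the gene and the element annotation.

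Exonic element cover ranged widely among coding genes. In 16207 coding genes (88.6%) the exons held no element bp, and in 575 the cover was above 0 but under 10%. The count per step of 10 percentage points fell to 111 genes between 40% and 50% and to the same number between 50% and 60%, so the threshold cuts a continuous range. At the upper end 103 genes lay wholly in elements. Just inside the threshold were Mp2g13890 (50.1%, 569 of 1136 exonic bp), Mp2g18640 (50.1%) and Mp2g13870 (50.2%). Just outside were Mp4g02620 (49.8%), Mp3g20000 (49.8%) and Mp5g02070 (49.7%). The median cover of the members was 79.3%. In 51 members less than 50% of the coding bp lay in elements.

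**Figure D1:**
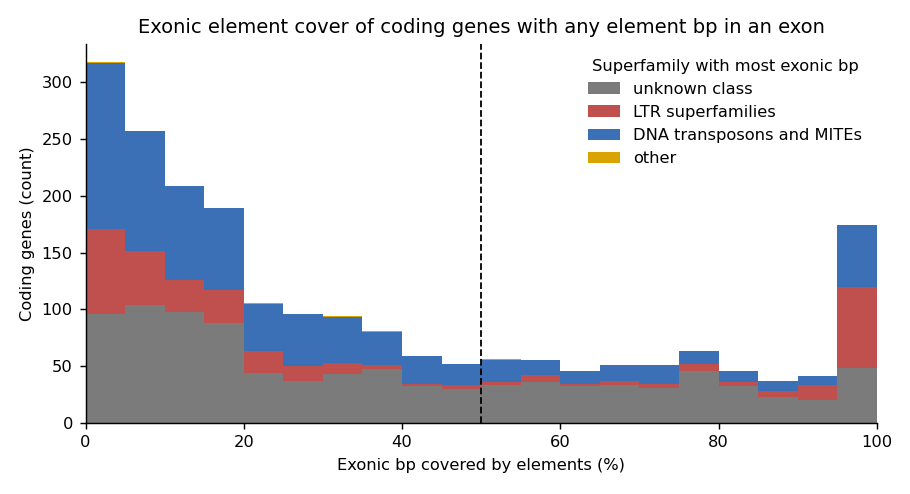
Count of coding genes (y axis) by the percentage of exonic bp in elements (x axis, steps of 5), for genes with any exonic element bp, stacked by the kind of superfamily with most exonic bp; the dashed line marks the threshold of 50%. The counts fall towards the threshold without a gap and rise again at full cover, where 103 genes lie wholly in elements.

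Sorted by the superfamily with most exonic bp, which is said below to lead a gene, the members had other proportions than the element bp of the genome, which was not tested. Elements of the unknown class led 334 members (53.9%) and held 12.7% of all element bp. The Mutator group (DTM) led 116 (18.7%) and held 6.55%. LTR elements of no superfamily led 79, CACTA elements (DTC) 38, Copia elements 31, Gypsy elements 8, hAT elements (DTA) 7, the DTH and Tc1/Mariner (DTT) groups 3 each and a LINE 1. Gypsy held 51.3% of all element bp and led 1.29% of the members. None of the members was led by a MITE, the short inverted-repeat elements. In all, 118 members were led by an LTR superfamily and 167 by a DNA transposon superfamily.

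No difference in single-exon share or coding length passed the test between members and other coding genes. The median was 3 merged exons in both groups, with up to 21 among members. A single exon made up 114 members (18.4%) and 4084 of the 17668 other coding genes (23.1%). By chromosome the share was 18.2% ± 8.53 in members and 23.2% ± 2.17 in the others (SD, n = 9), a difference of −5.04 ± 9.36 percentage points that did not pass the test (exact 2-sided sign-flip permutation over 9 chromosomes, adjusted p = 0.165; lower on 8 of 9). Without the 34 members of family TE_00000053 it was −6.78 points (exact permutation, adjusted p = 0.0260), so 1 family decided this call. The median coding length, taken from the transcript with most coding bp, was 975 bp in members (quartiles 519 and 1703 bp) and 954 bp in the others. The mean of the chromosome medians went the other way, 806 ± 269 bp against 898 ± 159 bp (SD, n = 9), and the difference of −92.0 ± 226 bp did not pass either (exact permutation, adjusted p = 0.25; lower on 6 of 9). The intron bp summed over a gene, single-exon genes included, had a median of 460 bp in members and 781 bp in the others. More than 1 transcript was listed for 27 members (4.35%) and for 17.0% of the others. Neither difference was tested.

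Untranslated sequence was missing more often from the members. In 113 of them (18.2%) exonic and coding bp were equal, against 1249 other coding genes (7.07%). By chromosome the shares were 17.0% ± 10.3 and 6.49% ± 2.15 (SD, n = 9), a difference of 10.5 ± 9.47 percentage points, positive on 7 of the 9 (exact sign-flip permutation, adjusted p = 0.0313 over 10 tests). Chromosome V, with 6 members, was one of the exceptions and had no such member. Untranslated bp count among the exonic bp that the rule divides by, so this trait is not independent of the rule. With 50% of coding bp as the rule the difference was 9.08 points (exact sign-flip permutation, adjusted p = 0.0313).

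The members stood in element-rich surroundings. Elements covered 74.2% of the members' intron bp against 6.77% in the other coding genes. By chromosome the values were 74.3% ± 10.4 and 7.2% ± 13.7 (SD, n = 9), the latter with 43.8% on V and at most 3.02% elsewhere, and members were higher on 9 of 9 (exact permutation, adjusted p = 0.0130, for which the unadjusted 0.00391 is the smallest possible). The rule fixes much of this, since a copy that covers exons also spans the introns between them, as in the 81 members that lie within a single copy. In intron bp outside the copies that touch an exon of the gene, which 330 members had, the values were 17.8% ± 14.4 and 6.47% ± 13.9 (SD, n = 9), and the difference of 11.3 ± 15.9 percentage points did not pass (exact permutation, adjusted p = 0.0911; higher on 8 of 9). In the 10 kb on either side of a gene, leaving out bases of any gene, elements covered 45.8% ± 11.7 for members and 20.7% ± 11.3 for the others (SD, n = 9), a difference of 25.1 ± 4.24 percentage points with the same sign on all 9 (exact permutation, adjusted p = 0.0130). A copy that covers an exon can also run on beyond the gene. Outside the copies that touch an exon the difference was 21.8 ± 4.29 points (exact permutation, adjusted p = 0.0130; higher on 9 of 9), and when the nearest 1 kb was left out it was 22.6 points (exact permutation, adjusted p = 0.0130). Mean flank cover within the members was 65.5% for those led by Gypsy, 56.6% for LTR elements of no superfamily, 49.8% for Copia, 42.1% for the unknown class, 38.5% for DTM and 29.0% for DTC.

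**Figure D2:**
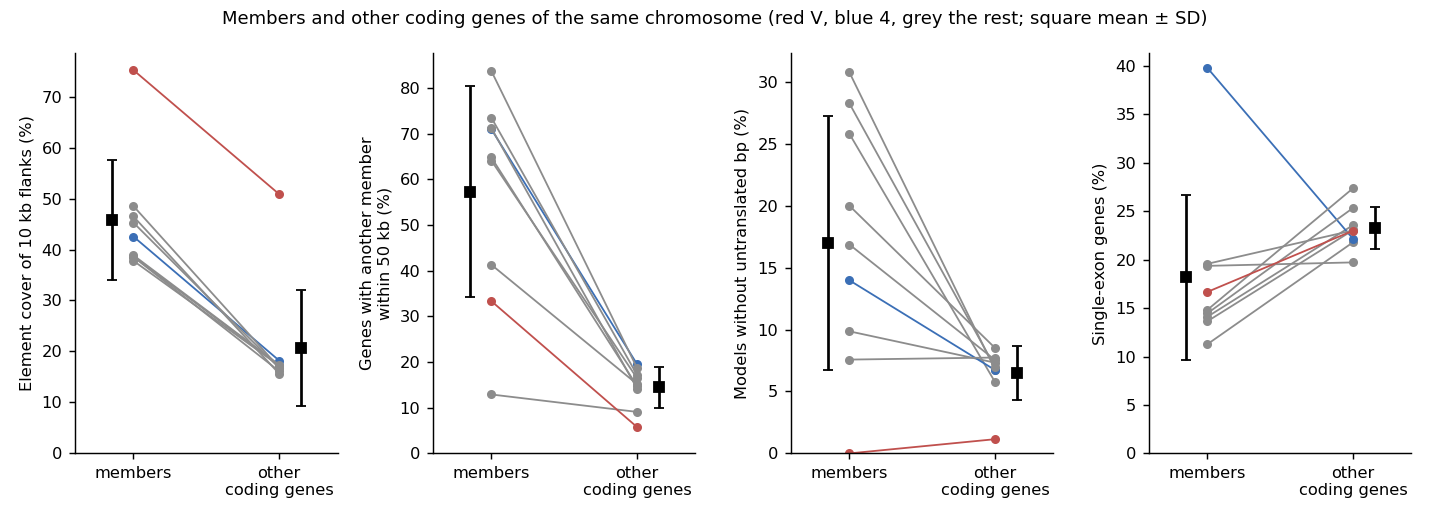
Values of the members and of the other coding genes (x axis) joined by a line for each of 9 chromosomes, in percent (y axes): element cover of the 10 kb flanks, genes with another member within 50 kb, models without untranslated bp, and single-exon genes. Squares with bars are the mean ± SD over chromosomes, red is V and blue is chromosome 4. The lines fall on 9 of 9 chromosomes in the flank and neighbour panels, and chromosome 4 alone falls in the single-exon panel.

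Members lay close to one another. Another member was found within 50 kb of 411 members (66.3%) and of 2708 other coding genes (15.3%), beside 17.1% of all coding genes. By chromosome the shares were 57.3% ± 23.0 and 14.5% ± 4.46 (SD, n = 9), a difference of 42.8 ± 19.6 percentage points in the same direction on all 9 (exact sign-flip permutation, adjusted p = 0.0130). The gap was widest on chromosome 5 (83.7% against 18.6%) and narrowest on chromosome 1 (12.9% against 9.08%). Of the 1461 other coding genes with element bp in an exon, 392 (26.8%) had a member within 50 kb, which was not tested. Chained by gaps of at most 50 kb, the members formed 119 clusters of at least 2 genes and left 209 members alone. In 25 clusters there were at least 5 members, 177 in all. Consecutive coding genes were both members in 226 cases, and in 170 of these (75.2%) both were led by the same element family. Of the 170 pairs 115 (67.6%) lay on the same strand, against 50.2% of consecutive pairs of other coding genes, which was not tested, and 51 pairs had equal coding lengths.

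Element families are sets of copies assigned to the same library entry, here with the terminal and the inner part of an LTR element counted as 1 family. Some families, such as TE_00000386 with 3 members, held only 1 copy, so their members touch the same stretch of sequence. The members were led by 176 families. Of these, 83 led at least 2 members, 527 members (85.0%) in all, and 35 led at least 5, with 405 members. Those 35 comprised 25 of the unknown class, 7 of DTM, 2 of Copia and 1 of LTR elements of no superfamily. Sharing was nearly as common outside the set. Among the 1461 other coding genes with element bp in an exon, 1176 (80.5%) shared their leading family with another of them, which was not tested. The 35 families differed in how much of their own sequence was genic. They were picked for leading members, so some of their bp lie in coding exons by the rule. The share in families that led no member was not computed. The share of a family's bp that lay in coding exons ran from 3.97% in the DTM family TE_00001217 to 98.3% in TE_00000019, with a median of 29.5%, and exceeded 50% in 9 of the 35.

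Some families of the unknown class coincided with named gene families. Gene symbols came from the annotation of the female assembly MpTak2 v7.1 and were paired by locus number and by gene length within 5%, not by sequence. On the autosomes 485 of 603 members (80.4%) could be paired in this way, beside 89.5% of all autosomal coding genes, and 164 carried a symbol, 33.8% of those paired beside 17.6% of all paired genes. The share paired was lower in members than in other coding genes on 8 of 8 autosomes, 78.0% ± 8.03 against 89.7% ± 2.30 (SD, n = 8; exact sign-flip permutation, adjusted p = 0.0156 over 2 tests added after the values were seen). The share with a symbol differed by 10.9 ± 17.7 percentage points, higher on 5 of 8, and did not pass (exact permutation, adjusted p = 0.133). By kind, a symbol was carried by 49.1% of the paired members led by the unknown class (136 of 277), 16.9% led by DNA transposons (21 of 124) and 8.33% led by LTR superfamilies (7 of 84), which were not tested against each other. Of the 22 families that led at least 2 members and held at least 2 symbols, 20 held symbols of a single stem, the symbol without its running number or letter. The exceptions were TE_00000028, with MpPOD and MpPR9, and TE_00000315, with MpLEA-like and MpLEAL. Among those with a single stem, the families of MpDOXC and MpH4 and a family of MpCupin each held only 1 copy. Their shared stem is that of neighbouring genes at that copy.

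Class III peroxidases, secreted heme enzymes that oxidise phenolic compounds and take part in building cell walls, were the gene family named most often. Symbols beginning with MpPOD or MpPR9, the pathogenesis-related class formed by peroxidases, were carried by 50 members out of 157 genes with such symbols. They were led by 9 element families. TE_00000014 led 20 genes, all on chromosome 5, of which 17 were paired and all 17 named MpPOD. In 16 of the 20 the coding length was 978 bp, and each had 4 or 5 merged exons. The longest coding sequence, 996 bp, belonged to MpPOD84 (Mp5g07820, chromosome 5, 8501530 to 8503168, minus strand), with 50.9% of its exonic bp in elements. The unnamed Mp5g01630 (chromosome 5, 2231732 to 2234290, minus strand) had 87.6%. TE_00000028 led 17 genes with a coding length of 975 bp in 7, and of its 12 symbols 6 were MpPOD and 6 MpPR9. TE_00000189 led 11 genes, 9 of which coded for 1005 bp and 9 of which were named MpPOD. The Copia family TE_00001138 led 7 genes, all on chromosome 6, with 6 MpPOD symbols. Its 25 copies in the genome were all annotated as terminal repeats.

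Cupins, the barrel-shaped proteins that include the germins of plant cell walls, were led by 2 families in the main. TE_00000303 led 18 genes with 16 MpCupin symbols, on chromosomes 2 and 6, and TE_00000076 led 12 genes, all named MpCupin, of which 11 had a coding length of 612 bp and 2 merged exons. In all, 31 of 97 genes with an MpCupin symbol were members. MpCupin26 (Mp2g03570, chromosome 2, 3885328 to 3886427, minus strand) coded for 771 bp and MpCupin98 (Mp6g21050, chromosome 6, 23298287 to 23299816, minus strand) for 699 bp, with 81.2% and 85.4% of their exonic bp in elements.

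Polyphenol oxidases, copper enzymes that oxidise phenols to quinones, were led mainly by TE_00000055. It led 18 genes, of which 17 lay on chromosome 5 and 12 carried an MpPPO symbol, and 73.7% of its bp lay in coding exons. Among the members with a symbol, MpPPO9 (Mp5g14440, chromosome 5, 15763469 to 15766879, plus strand), led by TE_00000320, had 2822 exonic element bp (92.6%). MpPPO8 (Mp5g14430) had 2649 bp (92.3%) and MpPPO34 (Mp5g19430) had 2378 bp (87.3%). The longest coding sequences led by TE_00000055 were those of Mp5g21460 (1944 bp) and, with 1932 bp each, Mp5g21385 and Mp5g21450. Members made up 13 of 54 genes with an MpPPO symbol, and 44 of the 54 had some exonic element bp.

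Further element families with symbols each led 7 to 16 genes. TE_00000177 led 16 genes, 12 of them named MpGH16, the glycoside hydrolase family of the enzymes that cut and rejoin xyloglucan in the wall. TE_00000137 led 15 genes on 5 sequences, 9 of them named MpPR1, small secreted proteins linked with pathogen response. There the elements covered 41.8% of the coding bp and a median of 70.7% of the exonic bp, so they lay more in untranslated sequence. TE_00000304 led 10 genes, all named MpOMT (O-methyltransferases), 6 of them with a coding length of 1092 bp. Members made up 11 of 23 genes with an MpOMT symbol and 12 of 40 with MpGH16. MpOMT6 (Mp2g07370), led by DTM, was near the threshold with 51.7%. TE_00000315 led 7 genes on chromosome 6, each with 2 merged exons, of which 6 coded for 282 bp; its symbols were 5 MpLEA-like and 1 MpLEAL, late embryogenesis abundant proteins.

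Genes with many exons were also found among them. MpHA11 (Mp3g07700, chromosome 3, 7431534 to 7437756, plus strand) and MpHA12 (Mp3g07710, 7442921 to 7449209, plus strand), of the proton pumps of the plasma membrane, each had 21 merged exons, 69.0% and 68.8% of exonic bp in elements, and were led by TE_00001235. Mp6g16370 (chromosome 6, 17825186 to 17835376, minus strand) also had 21 exons. It was led by TE_00000139, as were Mp6g16340 (3696 coding bp, 94.3% cover) and Mp6g16350 (3525 coding bp, 93.7%), 14 members in all and all on chromosome 6. None of those 14 carried a symbol. TE_00000230 led 11 genes, among them the 4 of 4 genes named as wall-associated kinases of the stem MpRLK-Pelle_WAK, receptor kinases of the plasma membrane. MpRLK-Pelle_WAK3 (Mp6g18030, chromosome 6, 19955334 to 19960847, minus strand) had 9 merged exons, a coding length of 2820 bp and 81.1% cover.

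**Figure D3:**
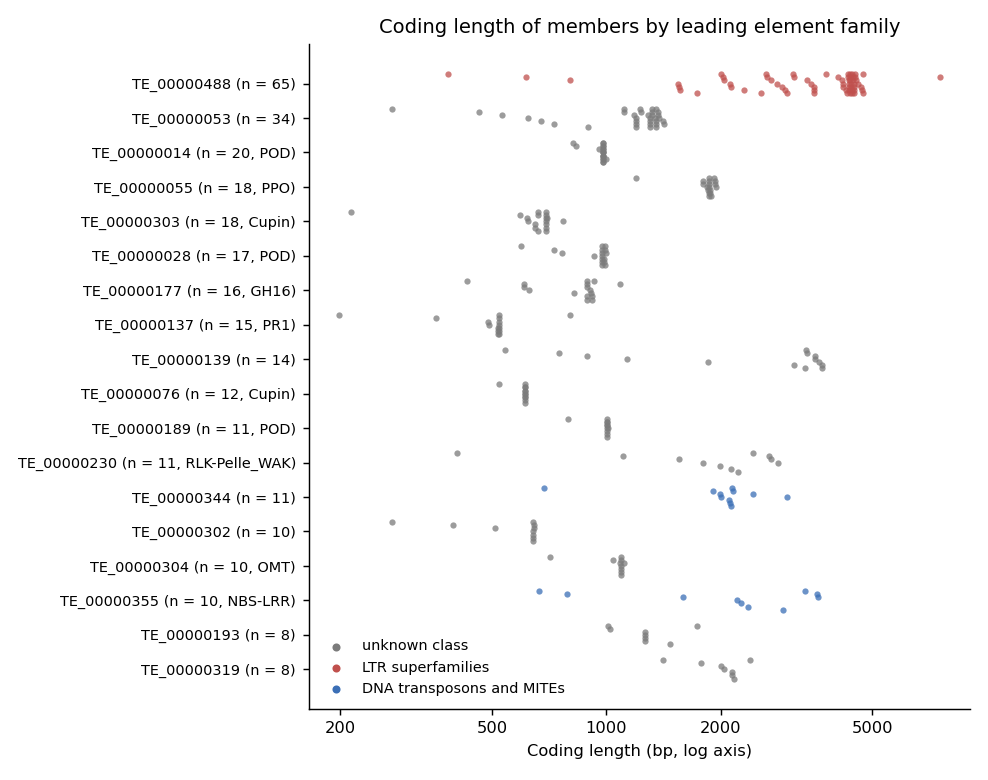
Coding length of each member in bp (x axis, log scale) for the 18 families that led most members (y axis, with the number of members and the symbol stem seen most often), coloured by the kind of element. Families such as TE_00000014 and TE_00000076 pile up at 978 and 612 bp, while TE_00000488 and TE_00000355 are spread.

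The largest clusters were arrays of these gene families. On chromosome 2, 15 members lay in 140 kb from Mp2g03390 (MpCupin20) to Mp2g03690 (MpCupin33), 14 of them led by TE_00000303 and 13 named MpCupin, with 8 on the plus and 7 on the minus strand. The region held 31 coding genes in all, so 16 others were interspersed. On chromosome 5, 14 members lay in 125 kb from Mp5g00870 (MpCupin64) to Mp5g01110, 11 of them led by TE_00000076 and 13 named MpCupin. The last of them, Mp5g01110, had 1 exon of 474 bp, all of it inside a structure-based DTM copy of 4918 bp. A further 12 members lay in 182 kb of chromosome 5 from Mp5g21385 to Mp5g21510 (MpPR9l), 8 led by TE_00000028 and 3 by TE_00000055, with 6 MpPR9 symbols. Only 2 other coding genes lay among these 12.

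**Figure D4:**
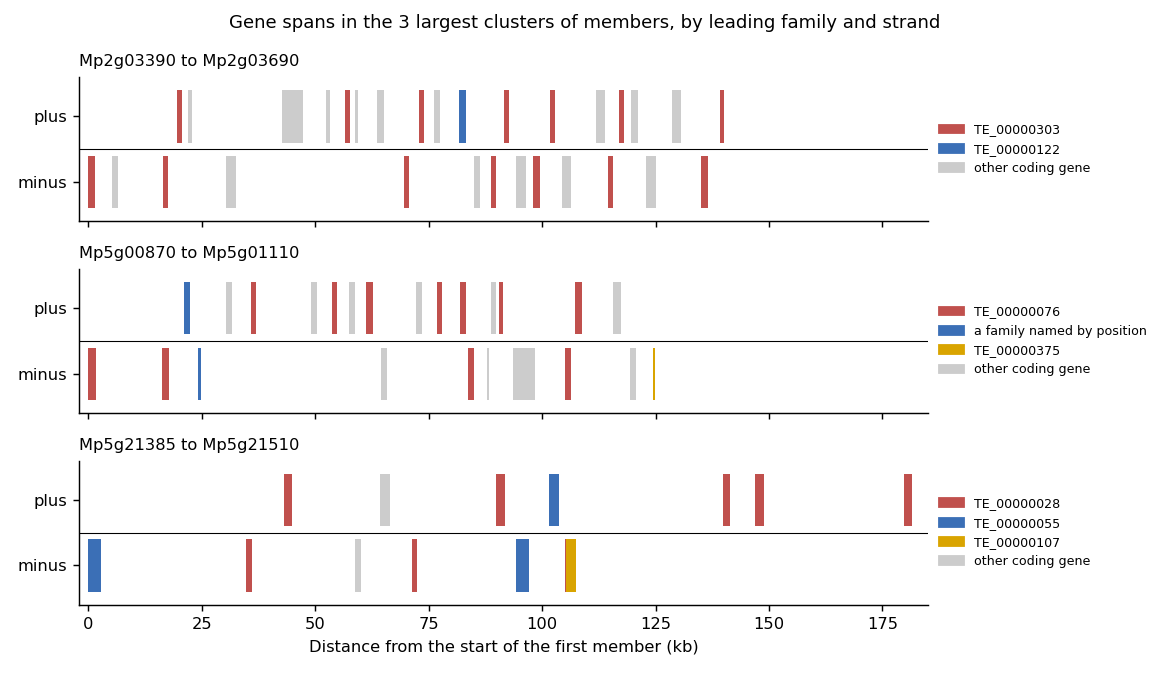
Spans of coding genes in the 3 largest clusters, in kb from the start of the first member (x axis), above the line on the plus strand and below it on the minus strand; colours give the leading family of a member, grey other coding genes. The 15, 14 and 12 members lie on both strands, with 16, 11 and 2 other coding genes between them.

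The family that led most members was of another kind. TE_00000488, an LTR family of no superfamily, led 65 members on 11 sequences: 20 on chromosome 8, 11 on 4, 9 on 6 and 8 on 3, among others. They formed 51 separate groups at the 50 kb limit. Their median exonic cover was 98.7% and their median coding length 4188 bp (quartiles 2712 and 4425 bp), with 62 distinct lengths among 65 genes and a median of 4 merged exons. None carried a symbol, though 48 were paired. Of the family's 1418 copies, 1417 were annotated as the internal part of an element, and 21.0% of the family's bp lay in coding exons. The copy strand ran against the gene strand in 64 of the 65, over 99.9% of the stranded exonic bp, and the remaining gene had no stated strand. Mp2g05030 (chromosome 2, 5230770 to 5244295, minus strand) had the longest coding sequence of all members, 7551 bp, and 9815 of 11451 exonic bp in 21 copies. Mp8g14550 (chromosome 8, 16247476 to 16253556, plus strand) coded for 4737 bp, with 99.1% cover, and Mp4g13500 (chromosome 4, 15007131 to 15014252, minus strand) for 2940 bp, with 99.5%.

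MpVg00320 and Mp3g07970 each had a long single exon inside a structure-based LTR copy on the strand of the gene. MpVg00320 (V, 1567407 to 1572208, plus strand) had 1 exon of 4802 bp, of which 4365 bp were coding. It lay wholly within a structure-based Copia copy of 5055 bp on the same strand. On chromosome 3 (7677588 to 7684990, plus strand) Mp3g07970 had 1 exon of 7403 bp, of which 6198 bp were coding, inside a structure-based Gypsy copy of 13643 bp on the same strand; it was singled out after its values were seen. The other 7 members led by Gypsy had coding lengths of 177 to 888 bp. Among the 31 led by Copia 13 had a single exon, 12 lay within a single copy, 9 had a structure-based copy as the one with most exonic bp, and the median coding length was 582 bp. Not all were coding in their element part: in Mp3g11440 (chromosome 3, 11025793 to 11032140, plus strand) 3522 of 5530 exonic bp but 0 coding bp were Copia, on the opposite strand.

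DTM led 116 members through 52 families, 24 of which led at least 2. The median coding length was 653 bp, 33 had a single exon and 28 lacked untranslated sequence. TE_00000344 led 11 genes, 9 of them on chromosome 2, with 8 merged exons as the median and a median coding length of 2115 bp. TE_00000355 led 10 genes, of which 9 formed an unbroken run of 9 coding genes on the minus strand of chromosome 3. Its symbols were 2 of the stem MpNBS-LRR, intracellular immune receptors: MpNBS-LRR5 (Mp3g09150, chromosome 3, 9029102 to 9033940, 74.1% cover, 3321 coding bp), the first gene of the run, and MpNBS-LRR14 (Mp4g22230) on chromosome 4. Within the run, Mp3g09170 had 3267 exonic element bp. The DTM gene with most, Mp6g03870 (chromosome 6, 4269505 to 4277678, minus strand), had 4143 exonic element bp in 9 exons. MpNPF29 (Mp6g04780), of a family of nitrate and peptide transporters, had 57.7% cover by 1 structure-based copy of 4358 bp.

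Most members led by DTC owed their cover to 1 structure-based copy. In 31 of the 38 members led by DTC (81.6%) the copy with most exonic bp was structure-based. The share was 45 of 116 (38.8%) for DTM, 47.9% for all members led by DNA transposons and 1 of 334 for the unknown class. That class holds groups with no recognised features, so its low share follows largely from the annotation. Over all 620 members the structure-based share was 93 (15%), beside 187 (12.8%) of the 1461 other coding genes with element bp in an exon. These shares were not tested against each other. The 38 were led by 34 families, of which 2 led more than 1 member, and 29 had no stated element strand. Their flanks were the least element-rich among the superfamilies that led at least 10 members. All 7 DTC members with a symbol had a structure-based copy of 3975 to 4862 bp as their main element. They were MpRLK-Pelle_WAK_LRK10L-10 (Mp4g01430, chromosome 4, 1546536 to 1551338, plus strand, 90.5% cover), which had the most exonic element bp of all members with a symbol, MpTAA, MpAUS, MpPOD3, MpPOD126, MpMVD and MpPOD41. MpTAA (Mp5g14320, chromosome 5, 15596325 to 15601381, plus strand), the aminotransferase of auxin synthesis, had 1799 of 3360 exonic bp (53.5%) in a DTC copy. MpMVD (Mp3g01340, chromosome 3, 1539059 to 1543976, minus strand), of the mevalonate pathway, had 55.4% over 11 merged exons. Of the coding bp alone, elements covered 22.0% in MpTAA and 49.3% in MpMVD. They covered 84.2% in MpPOD41 and 100% in MpRLK-Pelle_WAK_LRK10L-10, MpAUS, MpPOD3 and MpPOD126. Mp4g15890, without a symbol, had 3485 of 4264 bp of a single exon in a DTC copy.

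LTR-led and DNA-transposon-led members were compared on 8 autosomes. The single-exon share was 18.1% ± 6.24 and 27.0% ± 10.7 (SD, n = 8), a difference of −8.97 ± 8.05 percentage points (exact 2-sided sign-flip permutation, adjusted p = 0.0521; lower on 6 of 8). The median coding length was 1750 ± 1368 bp and 722 ± 150 bp (SD, n = 8), longer for LTR on 6 of 8 (exact permutation, adjusted p = 0.112). The share of stranded exonic element bp on the gene's strand was 21.9% ± 27.0 and 44.5% ± 22.4 (SD, n = 8), lower for LTR on 6 of 8 (exact permutation, adjusted p = 0.165). None of the 3 differences passed, and all 3 reversed without TE_00000488, to 13.9 points, −159 bp and 30.5 points. Among genes with at least 80% cover the first 2 passed, with −11.4 points (exact permutation, adjusted p = 0.0446) and 1885 bp (adjusted p = 0.0260), and the strand difference did not.

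The strand of the elements relative to the gene was mostly the same within an element family. Over all members 33.1% of the stranded exonic element bp lay on the gene's strand, against 53.7% in the other coding genes. By chromosome the values were 33.4% ± 11.5 and 53.5% ± 6.46 (SD, n = 9), lower in members on 8 of 9 (exact 2-sided sign-flip permutation, adjusted p = 0.0313). This difference of −20.1 ± 16.2 percentage points rested on 1 family: without TE_00000488 it was −0.906 points (exact permutation, adjusted p = 0.840). With elements of at least 200 bp alone it was −19.6 points and did not pass either (exact permutation, adjusted p = 0.0521). Within families the direction was nearly fixed. In 30 of the 35 families that led at least 5 members, each member with a stated strand had most of the leading family's bp in the same direction, with the gene in 16 families and against it in 14. TE_00000053 was against the gene in 34 of 34 members and TE_00000303 with it in 18 of 18. The exceptions were TE_00000230, TE_00000168, TE_00001138, TE_00000377 and TE_00000132. The stated strand of homology-based copies is that of a library entry, and whether it is the direction of transcription was not tested. Copies of a family are assigned to the same entry, so the directions of its members are not independent.

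**Figure D5:**
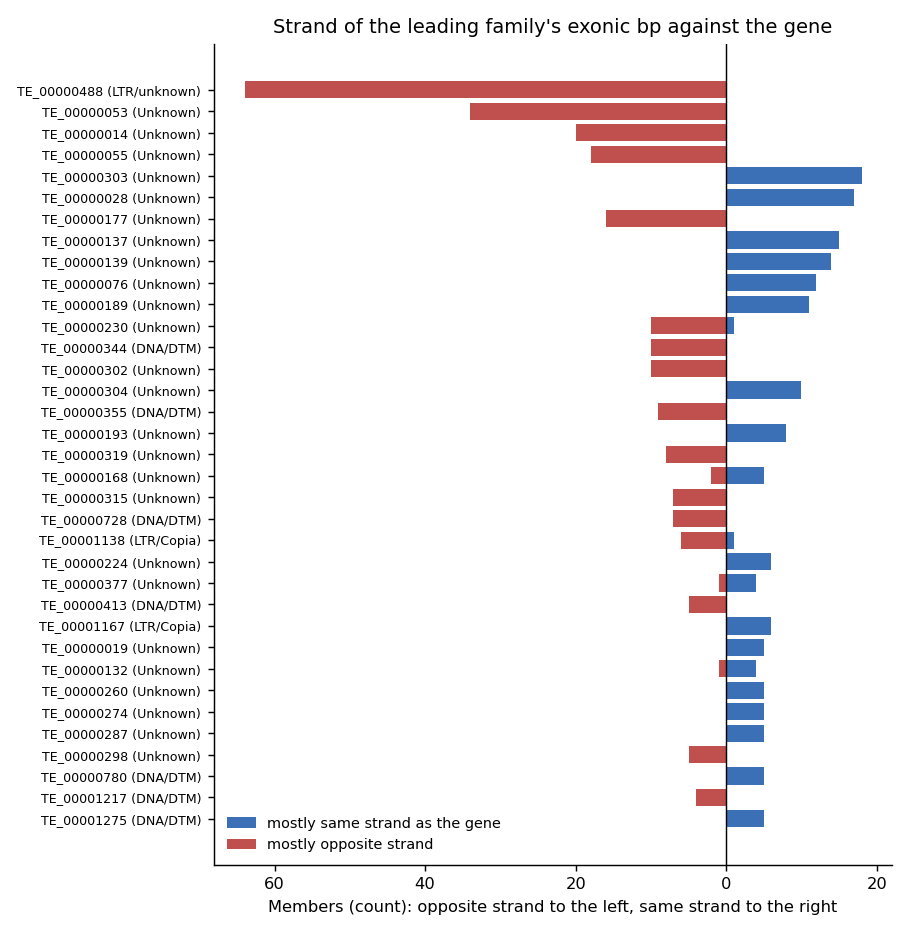
Count of members (x axis) whose exonic bp of the leading family lay mostly on the strand opposite to the gene (left, red) or on the same strand (right, blue), for the 35 families that led at least 5 members (y axis). Almost every family lies on 1 side, with TE_00000488 at 64 against the gene and TE_00000303 at 18 with it.

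Chromosomes differed in their share of members. Chromosome 5 had most, 135 of 2334 coding genes (5.78%), of which 113 were led by the unknown class, and chromosome 1 fewest, 31 of 2816 (1.1%). The other autosomes lay between 2.44% and 4.05%. On chromosome 4 the unknown class led 49 of 93 members, and 31 of these were led by TE_00000053, a family without symbols in which 22 of 34 genes had a single exon. Its longest were Mp4g19440 (1416 coding bp, chromosome 4, 21934560 to 21936473, plus strand) and Mp4g19400 (1413 coding bp). The male sex chromosome V had 6 members among 93 coding genes (6.45%), 3 led by the unknown class and 3 by LTR superfamilies. Beside MpVg00320 these included MpVg01223 (6734336 to 6741664, minus strand), led by TE_00000488 with 97.5% cover, and MpVg00390, with 273 coding bp. On the unplaced sequences 11 of 61 coding genes (18%) were members.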

How the data were processed

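The authors deposited 2 GTF annotations of MpTak1 v5.1 revision 2, per the file names: 276543 rows of exons and coding parts, and 89262 element rows made with EDTA, per the file's source column. Their values are positions in bp counted from 1. The score column, deposited by the authors, is empty, and no column belongs to a library. The kit was directional, per the labels' protocols; the sources used here do not give the settings of the annotation. Members, lists and tests were chosen with earlier results of these data known. Genes named were the 2 with most exonic element bp per superfamily leading at least 10 members, the 3 with most exons, the 2 with longest coding length in the 5 largest families, the ends of the 3 largest clusters, 3 genes on either side of the threshold, up to 3 on V and 10 with symbols by exonic element bp; others were named after their values were seen. Tests were exact 2-sided sign-flip permutations of differences paired by chromosome (at least 5 members, or 3 of each kind), with Benjamini-Hochberg adjustment over 10 planned tests and, apart, 2 added ones. The interval code and the test were tried on simulated data. The planned comparison of Mpmet-3 with wild type was not made. Alternatives were other thresholds, coding bp, element sets, transcripts, distances and chromosomes, and intron or flank bp outside copies that touch an exon. Scripts used Python 3.11.15 with matplotlib 3.10.9, numpy 2.4.6, scipy 1.17.1 and pandas 2.3.3.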

Additional observations from a re-analysis of the deposited data

Results flagged for a closer look

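The single-exon difference of chromosome 4 stood apart from the other 8 chromosomes. Members exceeded the other coding genes there by 17.7 percentage points (39.8% against 22.1%), and the gap to the nearest chromosome was 0.596 of the whole range, above Dixon's 95% limit for 9 values. Of the 37 single-exon members of chromosome 4, 20 were led by TE_00000053, and without that family the member share was 27.4%. The rule was applied to 13 sets of chromosome values, and chance marks about 1 in 20.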

How the results depend on the processing

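No paired analysis was possible because no file holds a value of a library, so libraries could not be paired by replicate number; the tests here are paired by chromosome. With a threshold of 80% there were 298 members, 41.3% led by the unknown class and 81.5% in a shared leading family; the coding length difference reversed to 29.4 bp, and 2 of the 3 LTR against DNA transposon differences passed, −11.4 points for single exons and 1885 bp for coding length. Without the unknown class there were 277 members, 72.2% in a shared family; the single-exon difference reversed to 0.787 points, the coding length difference to 28.1 bp and the symbol difference to −5.98 points. With elements of at least 200 bp the strand difference was −19.6 points and no longer passed (exact permutation, adjusted p = 0.0521). Chosen after seeing the data, leaving out TE_00000488 gave 60.2% led by the unknown class, a strand difference of −0.906 points that did not pass, and LTR against DNA transposon differences reversed to 13.9 points (single exons), −159 bp (coding length) and 30.5 points (strand). Without TE_00000053 the single-exon difference, −6.78 points, passed. That of LTR against DNA transposon members holds none of its genes and stayed at −8.97 points with the same unadjusted p; it passed through the adjustment alone. Outside copies that touch an exon, also chosen after seeing the data, the intron cover difference was 11.3 points and did not pass. The other 114 of the values recomputed kept their direction and side of the threshold, or stayed within their margin; flank cover and neighbouring members passed under every alternative run. No other causes were tested. Precision is limited by 8 or 9 chromosomes of 1 genome, for which exact p-values cannot fall below 0.00781 or 0.00391.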

Other observations

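Genes that share a symbol stem with members differed in how many held any exonic element bp. Of 149 genes with an MpPOD symbol, 85 held element bp in an exon and 44 were members; for MpHA these were 17 and 2 of 18, for MpGH16 33 and 12 of 40, for MpCupin 45 and 31 of 97, for MpPR9 7 and 6 of 8, and for MpRLK-Pelle_WAK 4 and 4 of 4.

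Several arrays had no symbol at all. TE_00000260 led 5 of 6 consecutive coding genes on the plus strand of chromosome 5 (Mp5g14650 to Mp5g14710), each with 6 merged exons and a coding length of 1071 bp. TE_00000224 led 6 genes on chromosome 8 (Mp8g02700 to Mp8g02780). In 5 of them every exonic bp lay within a single copy of 3509 to 3626 bp, and 4 of the 6 coded for 783 bp. A further array did carry symbols. There a structure-based DTM copy of 3065 bp on chromosome 5 led 3 single-exon genes, Mp5g22450 (MpH4f), Mp5g22460 (MpH4g) and Mp5g22470, each with 312 coding bp. The 2 symbols are those of histone H4. Elements covered 66.7% of the coding bp of the 3 genes together. Mp5g22460 and Mp5g22470 lay wholly in elements. In MpH4f elements covered 54.2% of the exonic bp, all of it untranslated sequence. Mp5g22470 lies within the span of Mp5g22460, a single exon on the same strand, so reads within Mp5g22470 would fit both models. No reads were examined.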
